A study of Mus musculus with 8 samples.

Results

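Retinoid genes were followed in mouse embryonic fibroblasts (MEFs), connective tissue cells grown out of embryos, with and without Lats2, a kinase of the Hippo pathway. The 9 genes take up, make, bind, remove or sense retinoic acid. They are Stra6, Aldh1a1, Aldh1a2, Aldh1a3, Dhrs3, Crabp1, Crabp2, Cyp26b1 and Rarb. Every gene probe carrying one of these symbols was taken, which gave 12 of the 41174 gene probes on the array. Knockout (KO, Lats2-/-) and wild-type (Lats2+/+) MEFs came from littermate embryos labelled C57BL/6J, at an unstated embryonic age, with no treatment. Both genotypes grew in DMEM with inactivated fetal bovine serum. There were 3 litters, numbered 112, 116 and 121, with 1 RNA extract of each genotype per litter, each from cells with a single clone name, so the litter was the replicate. The KO and wild-type extract of a litter were hybridised together, one in Cy3 and one in Cy5. There were 8 arrays with balanced dye swaps, 2 for litter 112, 2 for litter 116 and 4 for litter 121.

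Vitamin A circulates as retinol and is turned into retinoic acid inside cells. Retinol enters through the membrane receptor Stra6, is oxidised reversibly to retinal, and is reduced back to retinol by Dhrs3. The retinaldehyde dehydrogenases Aldh1a1, Aldh1a2 and Aldh1a3 oxidise retinal irreversibly to retinoic acid. Crabp1 and Crabp2 bind retinoic acid in the cytoplasm, and Cyp26b1 breaks it down. Retinoic acid receptors such as Rarb pair with retinoid X receptors on DNA, at repeated half-sites called retinoic acid response elements. In the embryo this pathway patterns the body axis through the Hox genes, and Rarb, Dhrs3, Stra6, Crabp2 and the Cyp26 genes are themselves known to respond to retinoic acid.

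The Rarb promoter is shown because it holds the textbook form of this element. It is RefSeq sequence, build GRCm38.p6, of the 250 bases before the start of Rarb (chr14:16575477-16575726, minus strand), with the half-sites of the element in capitals.

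Rarb upstream: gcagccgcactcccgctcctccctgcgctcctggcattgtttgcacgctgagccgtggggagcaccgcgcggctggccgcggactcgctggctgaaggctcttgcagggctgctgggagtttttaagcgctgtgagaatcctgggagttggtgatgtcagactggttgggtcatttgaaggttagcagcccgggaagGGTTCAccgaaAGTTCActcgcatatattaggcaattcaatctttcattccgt

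The half-site was searched as AGGTCA, as AGTTCA, as GGGTCA and as GGTTCA, on both strands, from 250 bases before to 50 after each start. The direct repeat with 5 bases between the half-sites lay from -53 to -37 in Rarb. That spacing was found in 32 of 32851 RefSeq promoters (0.0974%), and in 1 of the 7 retinoid genes with a promoter entry. Spacers of 1 base (73 promoters, 0.222%) and of 2 bases (88 promoters, 0.268%) were found in none of the 13 promoters of those 7 genes. Entries were not found for Crabp2 and Aldh1a3. Among the wider pathway, Cyp26a1, which codes for another retinoic acid hydroxylase, had the same arrangement on the opposite strand, from -32 to -16 (chr19:37697776-37697792). The pair is set side by side to show that both share the second half-site.

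Rarb element: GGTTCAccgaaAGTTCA
Cyp26a1 element: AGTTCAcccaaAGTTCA

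A match is only a match of letters. Of the 31 genes with such a repeat, 6 had a probe that passed the filter on dim signals, and their median log2 ratio of KO over wild type was 0.12, with 4 higher and 2 lower in KO. None was 2-fold different with an unadjusted p under 0.05 (0.835% of all kept probes). Ppbp, a chemokine gene named after its values were seen, had the lowest unadjusted p of the 6, 0.0125, on a dim probe with a mean log2 signal of 6.39.

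The libraries behind these values were alike in brightness but not in cell markers. The share of gene probes called well above background ran from 53.5% to 60.3% over the arrays for KO and from 52.9% to 61.3% for wild type. The Lats2 probe of record AY015062 was lower in KO in every litter (log2 ratios -1.33, -1.05 and -0.56 in litters 112, 116 and 121). The other 3 Lats2 probes were lower in litters 112 and 116 but higher in litter 121 (0.80 to 1.17), against the label. Which part of the gene is deleted is not given in the sources used here, and a probe outside it checks nothing. Of 10 fibroblast markers, 8 to 10 were detected in each extract, yet in litter 121 the KO had less Pdgfra (log2 ratio -4.96), Thy1 (-3.66) and Col3a1 (-3.42), and more of the neural progenitor marker Nes (4.10). In litter 116 the KO had more Lum (5.48) and Dcn (6.22). Markers of epithelial, endothelial, blood and muscle cells mostly lay near background, with summed linear signals of 267 to 492 in all 6 extracts. Among them, Cdh1 and Kdr were detected only in the KO of litter 121, at least 2.08-fold and 1.41-fold higher. Krt8 and Krt18 were detected only in the wild type of litter 116, with the KO at least 1.23-fold and 1.24-fold lower. All values below are for a bulk culture, in which more cells of a type and more RNA per cell cannot be told apart.

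Of the 9 retinoid genes, 8 were well above background in at least 1 extract, and 7, with 8 probes, passed the filter (well above background in at least 2 of 3 extracts of either genotype). None of the 7 passed limma's moderated test after Benjamini-Hochberg adjustment, with adjusted p from 0.634 to 0.949. Over all 22642 kept probes that share was 0%, by limma and by the methods' t-test alike, with 1549 probes (6.84%) at an unadjusted limma p under 0.05. Dhrs3 alone of the 7 genes was at least 2-fold different with an unadjusted p under 0.05, against 189 probes (0.835%) over the array. Within single litters, differences of at least 2-fold were seen in 2 of 7 genes in litter 112 (3.77% of kept probes), 4 of 7 in litter 116 (7.71%) and 5 of 7 in litter 121 (6.09%). Aldh1a3 passed 2-fold in opposite directions in litters 112 and 121, and 3 of 7 genes kept 1 sign in all 3 litters (29.7% of kept probes). The median SD between litters was 1.38 on the log2 scale over the 7 genes and 0.25 over all kept probes, a description without a test. The genes were chosen with earlier results of these data known, and Aldh1a3 and Rarb passed the filter only through KO extracts. The counts of genes set beside the array shares are therefore also a description only. For all 8 kept probes the litters ranged wider than the arrays within a litter, by 0.37 to 4.25 between litters against at most 0.69 within one.

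**Figure D1:**
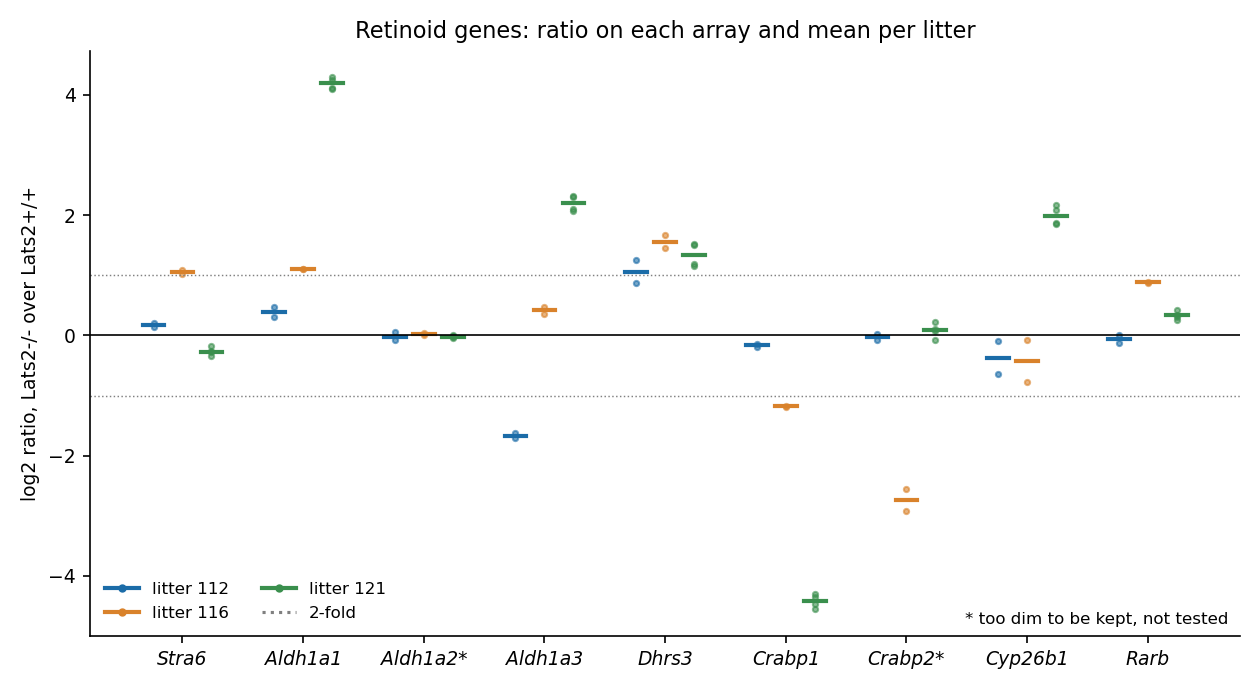
Log2 ratio of Lats2-/- over Lats2+/+ (vertical axis) for the probe standing for each retinoid gene. Dots are arrays, bars are litter means and dotted lines mark a 2-fold difference. The litter means of Dhrs3 lie above the upper line in all 3 litters (1.06, 1.56 and 1.34), with 1 array of litter 112 below it at 0.87, Aldh1a1 and Crabp1 part widely in litter 121 (4.19 and -4.41), and Aldh1a3 runs from -1.67 to 2.20.

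Dhrs3, which reduces retinal to retinol and so draws it away from retinoic acid synthesis, was higher in KO in every litter. It has 2 probes that do not overlap, both on the plus strand of chromosome 4 in mm8 (144194134 to 144194193 and 144194001 to 144194060). For the brighter one, A_52_P387237, the log2 signal was 10.57 in KO and 9.52 in wild type in litter 112, 9.36 and 7.79 in litter 116, and 10.49 and 9.15 in litter 121. Each KO thus lay above its own littermate, but the KO of litter 116 lay below the wild type of litter 112, so the genotypes overlapped across litters. The KO was 2.08-fold, 2.96-fold and 2.53-fold higher in the same order, a mean log2 ratio of 1.32 ± 0.26 (SD, n = 3) with a 95% interval of 0.92 to 1.72. The second probe, A_51_P282947, gave 1.09, 1.28 and 1.46, a mean of 1.28 ± 0.18 (SD, n = 3).

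Both Dhrs3 probes were above 0 on 8 of 8 arrays. They were among 55 kept probes (0.243%) that were at least 2-fold different in 1 direction in all 3 litters. By limma's unadjusted p the probes ranked 29 and 14 of 22642, at 0.00092 and 0.000579. The adjusted p was 0.634 for both, which was the smallest on the array. Treating the genotypes as unpaired groups gave an unadjusted p of 0.0504. Treating the 8 arrays as observations with slide as a random block gave limma's adjusted p of 0.00418 for A_52_P387237. That setting counts repeat arrays of the same extracts and called 717 probes. The mesothelial markers Msln (log2 ratios 1.52, 2.03 and 1.91) and Krt19 (2.42 in litter 112, at least 1.2-fold in litter 116 and a log2 ratio of 1.83 in litter 121) were also higher in KO in every litter. The summed linear signal of 6 mesothelial markers, most of it from Msln in litter 116, was 1031, 17085 and 1458 in KO against 469, 4421 and 569 in wild type. Of these 6 markers 2 to 3 were detected in KO extracts and 1 to 2 in wild-type extracts, and the defining markers Wt1 and Upk3b were not well above background in any extract. The part of mesothelial cells in the Dhrs3 difference was not tested.

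Aldh1a1, a retinaldehyde dehydrogenase, was higher in KO in every litter, by very unequal amounts. Its probe A_51_P334942 (chromosome 19, 20710371 to 20710430, plus strand, mm8) had log2 signals of 7.11 in KO and 6.72 in wild type in litter 112, 7.66 and 6.56 in litter 116, and 13.29 and 9.11 in litter 121. Both extracts of litter 121 were above all extracts of the other litters. The KO was 1.31-fold, 2.15-fold and 18.2-fold higher, and the ratio was above 0 on 8 of 8 arrays. The mean log2 ratio was 1.89 ± 2.02 (SD, n = 3), with a 95% interval of -0.50 to 4.29 and limma's adjusted p of 0.726. Without litter 121 the mean was 0.75.

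The other synthesis genes were dim. Aldh1a2, the main retinoic acid synthesising enzyme of the early embryo, was not detected in any extract. It was well above background in 1 KO array of 8 and in none in wild type, with log2 signals of 6.08 to 6.14 and ratios of -0.02, 0.02 and -0.02.

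Aldh1a3, the third of these enzymes, changed direction between litters. Its brighter probe A_52_P87843 (chromosome 7, 66269849 to 66269908, minus strand, mm8) was detected in the wild type of litter 112 and in the KO of litters 116 and 121, and on no array of the littermate. The log2 signals were 6.21 in KO and 7.87 in wild type in litter 112, 6.48 and 6.06 in litter 116, and 8.38 and 6.18 in litter 121. Since one side was at background in each litter, only bounds can be given. In litter 112 the KO was at least 3.17-fold lower. It was at least 1.30-fold higher than its littermate in litter 116, and in litter 121 the bound was 4.56-fold, also higher. The probe passed the filter through the KO extracts of litters 116 and 121. Its measured ratios, with one side undetected in each litter, are therefore given as a description only: they were -1.67, 0.42 and 2.20, with a mean of 0.32 (limma's adjusted p 0.949) that turned to -0.62 without litter 121. The second probe, A_52_P113518, was too dim to be kept and had the same signs, -0.48, 0.19 and 0.77.

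**Figure D2:**
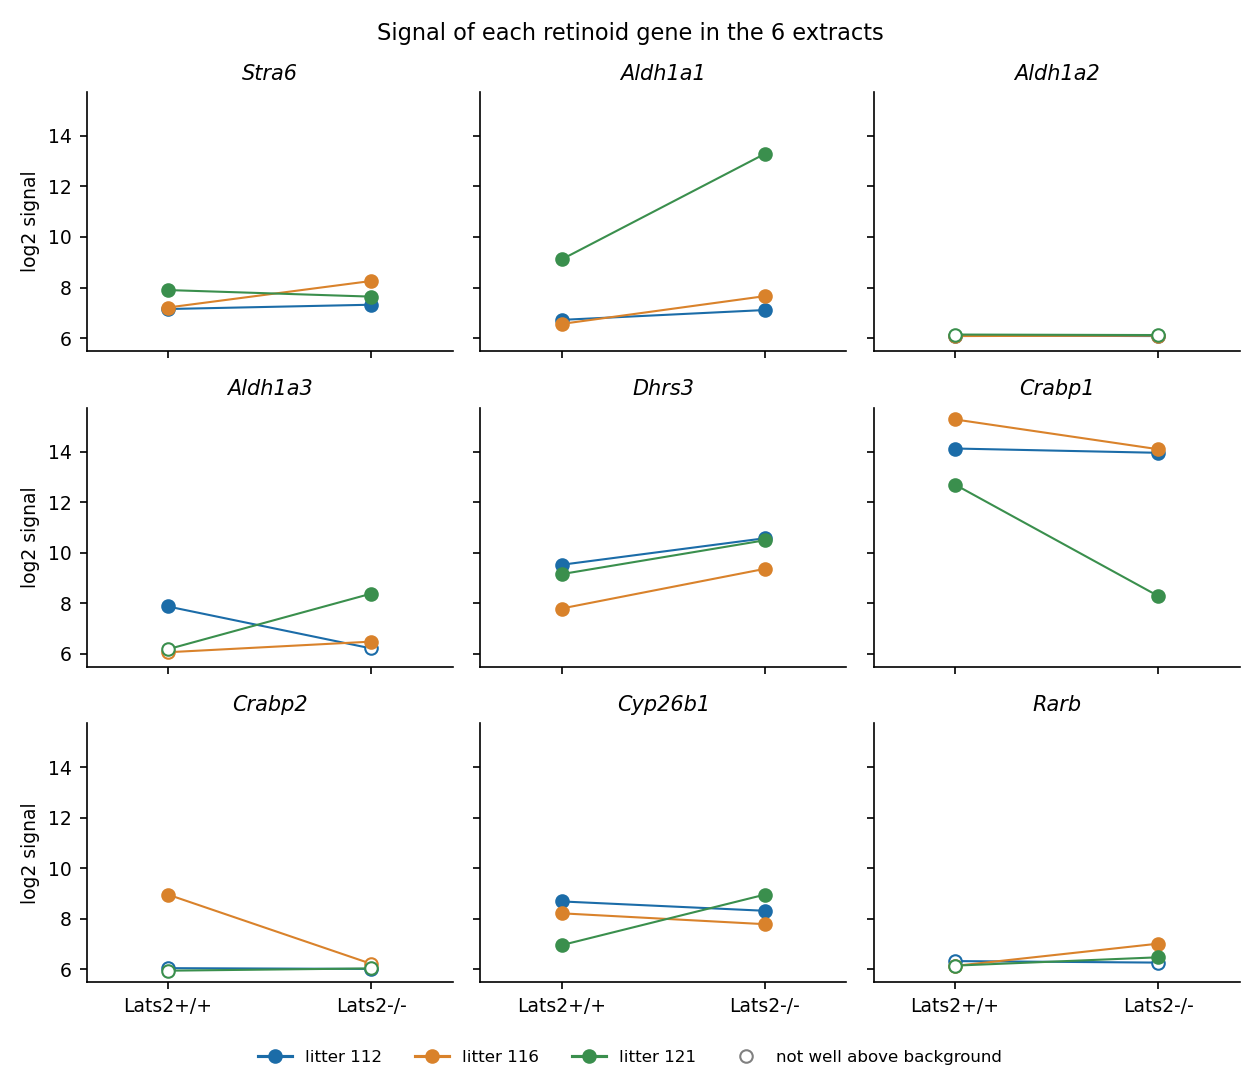
Log2 signal after normalization (vertical axis) in the wild-type and KO extract of each litter, 1 panel per retinoid gene. Lines join littermates and open circles mark extracts not well above background. The Dhrs3 lines run upward in parallel, those of Aldh1a1 and Crabp1 are steep in litter 121 only, and Aldh1a2 stays at 6.08 to 6.14. Levels of different panels come from different probes and are not comparable.

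Crabp1, a cytoplasmic retinoic acid binding protein found in embryonic mesenchyme, was lower in KO in every litter. Its probe A_52_P185907 (chromosome 9, 54566522 to 54566581, plus strand, mm8) had log2 signals of 13.95 in KO and 14.12 in wild type in litter 112, 14.09 and 15.27 in litter 116, and 8.28 and 12.69 in litter 121. The KO of litter 121 stood apart from the other 5 extracts. The KO was 1.12-fold, 2.27-fold and 21.3-fold lower, and below 0 on 8 of 8 arrays. The mean log2 ratio was -1.92 ± 2.22 (SD, n = 3), with a 95% interval of -4.55 to 0.71 and limma's adjusted p of 0.735. Without litter 121 the mean was -0.67.

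In litter 121 Aldh1a1 and Crabp1 thus differed by over 4 log2 units in opposite directions. The fibroblast markers Pdgfra, Thy1 and Col3a1 were lower, and Nes higher, in the same KO extract. The summed linear signal of 8 neural markers was 7986 in the KO and 2345 in the wild type of litter 121, against 1122 to 1972 in the other extracts. Of these 8 markers 4 to 5 were detected in KO extracts and 3 to 5 in wild-type extracts, and Sox2 and Pax6 were not well above background in any extract. The part of cell composition in these ratios was not tested, and litter 121 was alone on its slide, so that litter and slide cannot be told apart.

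Crabp2, a relative of Crabp1 that hands retinoic acid to its receptors, was detected in the wild type of litter 116 only (log2 signal 8.96 against 6.22 in the KO). There the KO, not detected on either array, was at least 6.43-fold lower. The other 4 extracts lay between 5.95 and 6.05, and the probe did not pass the filter.

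Cyp26b1, a retinoic acid hydroxylase, was detected on all arrays in both genotypes. The log2 signals of A_51_P501844 (chromosome 6, 84537616 to 84537675, minus strand, mm8) were 8.32 in KO and 8.69 in wild type in litter 112, 7.79 and 8.22 in litter 116, and 8.96 and 6.96 in litter 121. Litters 112 and 116 were slightly lower in KO (-0.37 and -0.43), while litter 121 was 3.98-fold higher. The arrays of this probe differed by up to 0.69 within a litter, more than those of any other kept retinoid probe. The mean was 0.40 ± 1.38 (SD, n = 3; limma's adjusted p 0.905), and -0.40 without litter 121.

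Stra6, the retinol uptake receptor, was also detected on all arrays. Its log2 signals were 7.32 in KO and 7.15 in wild type in litter 112, 8.26 and 7.21 in litter 116, and 7.64 and 7.90 in litter 121. It was 2.07-fold higher in the KO of litter 116, and the genotypes overlapped. The mean log2 ratio was 0.32 ± 0.67 (SD, n = 3; limma's adjusted p 0.834), and -0.05 without litter 116.

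Rarb, the receptor gene whose promoter is shown above, was close to background, but its detection differed between littermates in litters 116 and 121. The probe A_51_P202440 (chromosome 14, 15224264 to 15224323, minus strand, mm8) is printed 10 times on each array. In the KO, 20 of 20 spots were well above background in litter 116 and 40 of 40 in litter 121, against 0 and 4 in the wild type. In litter 112 neither extract was detected, with 3 of 20 spots in KO and 5 of 20 in wild type. Of those 8 spots, 7 were in the red channel, 3 in the KO on the array where it was Cy5 and 4 in the wild type on the swapped array. The array totals were 63 of 80 spots in KO and 9 of 80 in wild type, which are repeat spots of only 3 extracts per genotype.

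**Figure D3:**
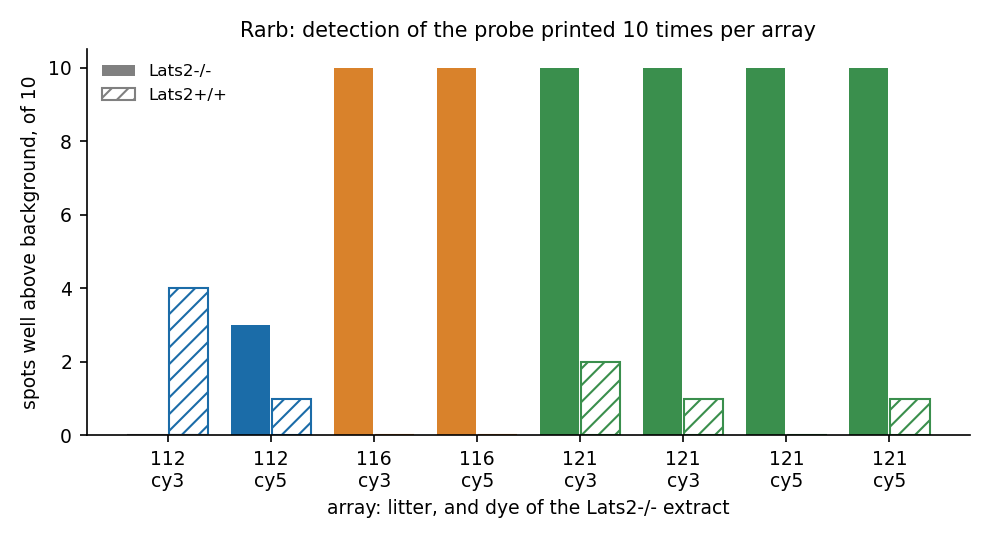
Spots of the Rarb probe well above background, out of 10 per array (vertical axis), for the KO (filled) and wild-type (hatched) extract on each array, labelled by litter and by the dye of the KO. All 10 KO spots pass on each of the 6 arrays of litters 116 and 121 under both dyes, and 0 to 2 wild-type spots do. The arrays of litter 112 show no such split.

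The Rarb log2 signals were 6.27 in KO and 6.33 in wild type in litter 112, 7.02 and 6.14 in litter 116, and 6.48 and 6.15 in litter 121. This is at least 1.84-fold higher in the KO of litter 116 and at least 1.26-fold higher in that of litter 121. The probe passed the filter only through the KO extracts in which it was higher, so the mean log2 ratio of 0.39 ± 0.47 (SD, n = 3; limma's adjusted p 0.754) is a description against undetected signal. It was 0.14 without litter 116 and 0.61 without litter 112. From the processed signals of Feature Extraction the mean was 1.87, so the size of this dim ratio depended on which signals were taken. The second Rarb probe, drawn from a record of another isoform, was not well above background on any array.

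Most other known genes of the pathway had small ratios. Of 55 listed genes 54 were on the array and 34 passed the filter, and none passed the adjusted test. None was at least 2-fold different with an unadjusted p under 0.05 either, where the array gave 0.835%. Their median log2 ratio was 0.10 and their median SD 0.41, against 0.39 and 1.38 for the 7 retinoid genes above, a description without a test. The mean was above 0 for 23 genes and below 0 for 11. In 3 of the 34 genes, all with a mean above 0, the unadjusted p was under 0.05 (6.84% of kept probes). They included the retinoid X receptor Rxra (log2 ratios 0.24, 0.37 and 0.36, limma's adjusted p 0.711), though a second Rxra probe detected in all 6 extracts gave -0.01, 0.26 and -0.05. They also included Bhlhe40, a transcriptional repressor gene listed on the array under its older name Bhlhb2 (0.77, 1.55 and 0.30, adjusted p 0.711).

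Among the other receptors, Rarg was detected in all 6 extracts with ratios of -0.06, -0.54 and 0.32. Rxrb was detected in all 6 as well, with -0.02, 0.40 and -0.07. Rara was too dim to be kept, being detected in the 2 extracts of litter 121, and Rxrg was detected in none. The retinoid X receptors Rxra and Rxrb were thus detected in every extract of both genotypes, with ratios under 2-fold in every litter.

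Among the kept genes of this wider list, large ratios were found at other steps and also differed by litter. Lpl, a lipase that releases lipids and retinyl esters from lipoproteins, had 3.99, -0.34 and 0.85. Tgm2, a transglutaminase induced by retinoic acid in many cells, had 0.88, 1.62 and -1.36. Rdh10, which oxidises retinol to retinal opposite to Dhrs3, had 0.61, 2.35 and -0.52. Dimmer kept probes of these genes had the same signs but smaller ratios. They were 1.83, -0.07 and 0.20 for Lpl and 0.36, 1.60 and -0.16 for Rdh10. For Tgm2 they were 0.15, 0.21 and -0.31 on one probe and 0.11, 0.37 and -0.45 on another. Some extracts were not detected by the dimmer Lpl and Tgm2 probes.

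Rdh10 thus shared the direction of Dhrs3 in litters 112 and 116 but not in litter 121. The alcohol dehydrogenase Adh7 had 0.05 and -1.25 in litters 112 and 116, and in litter 121, where the KO was not detected on any array, it was at least 2.01-fold lower. Cyp26a1, whose element is printed above, had 0.78 in litter 112 and 0.03 in litter 121. In litter 116 it was not detected on any KO array and was at least 1.31-fold lower. For each of these 5 genes the unadjusted p was above 0.05.

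**Figure D4:**
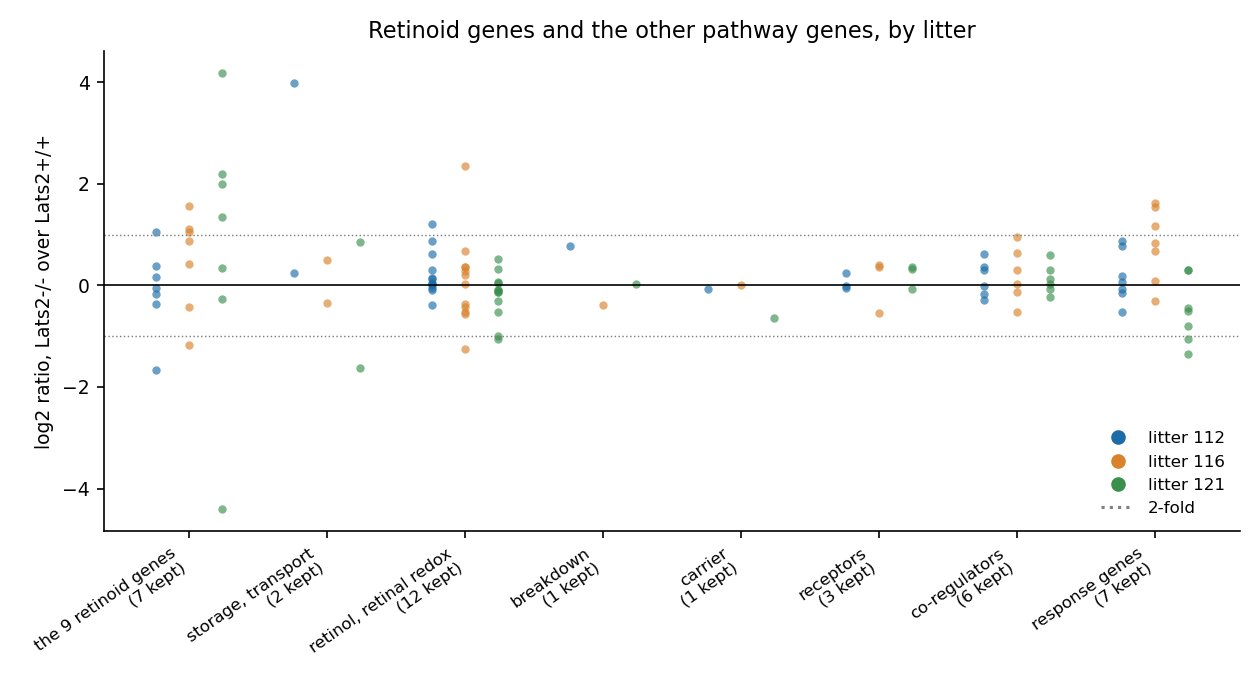
Log2 ratio of Lats2-/- over Lats2+/+ by litter (vertical axis) for the kept genes of each role, with the number of genes in brackets. Each dot is 1 gene in 1 litter, and dotted lines mark a 2-fold difference. The 7 kept retinoid genes spread from -4.41 to 4.19, while the receptors and co-regulators stay within the 2-fold lines.

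The Hox genes with a described retinoic acid response element were mostly dim. Hoxb4, a gene of the hindbrain and neck region, passed the filter only through KO extracts in which it was higher. It was at least 1.97-fold higher in the KO of litter 112 and at least 1.43-fold higher in that of litter 121. In litter 116, where neither extract was detected, the log2 ratio was -0.07. It was not 2-fold different with an unadjusted p under 0.05, a description against undetected signal.

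Hoxb1 was detected in no extract, and Hoxa4 in the KO of litter 121 only. Hoxd4 was at least 4.71-fold higher in the KO of litter 116 and at least 2.85-fold lower in that of litter 121. The 10 kept probes of the HoxB cluster, added after their values were seen, were at least 2-fold higher in KO for 7 probes in litter 112 (3.77% of all kept probes in either direction), 6 in litter 121 (6.09%) and none in litter 116 (7.71%), where they ran from -0.53 to 0.12. Most of these probes passed the filter only through the KO extracts of litters 112 and 121, in which they were higher. The counts in those litters thus depended on the filter and are a description only.

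The genes whose signals ran most like those of the retinoid genes were looked up over the 6 extracts among 1094 kept probes that varied with an SD of at least 1, with no test. Pearson's r describes likeness here, and 1 extract can set it. Nearest to Dhrs3 were Ptprb (r = 0.985), a receptor phosphatase, Vamp5 (0.965) and the transcription factor gene Eya1 (0.951). Nearest to Aldh1a1 were the imprinted gene Peg3 (0.996), the ephrin receptor gene Epha7 (0.992) and Csdc2 (0.992).

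Nearest to Crabp1 were Eps8 (0.996), a substrate of the EGF receptor, Rbpj (0.987), the transcription factor of the Notch pathway, and 1110014J01Rik (0.986). Nearest to Crabp2 were H60 (0.994), Plxnc1 (0.987) and Penk1 (0.985). Crabp2 was detected only in the wild type of litter 116, and that extract sets these values. The closest to Aldh1a3 was Lhx9 (0.900), a lower value than for the other genes.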

How the data were processed

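Total RNA of Lats2-/- and Lats2+/+ MEFs was compared on Agilent whole mouse genome arrays. The authors extracted the scans with Agilent Feature Extraction (10.7.3.1 per the file headers, 10.5.1.1 per the labels). The deposited scanner files hold linear intensity per spot and channel, not normalized, with processed signals, detection flags and the log10 ratio after background and dye correction. The deposited value table holds the same log10 ratios turned to Lats2-/- over Lats2+/+ (largest difference 0.005).

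Mean intensities were corrected with normexp (offset 50) in limma 3.58.1 under R 4.3.3 and loess normalized within arrays. Over the 8 arrays 860 outlier spots were dropped, and none was saturated. Signals are after Aquantile between arrays. Spots were averaged per probe and arrays per litter. Littermates share arrays, and the labelled clone names give this pairing. Kept probes were well above background (on most arrays of an extract) for 2 or more extracts of the 3 of one genotype. The 3 litter ratios were tested against 0 with limma's moderated test, two-sided, with Benjamini-Hochberg adjustment over 22642 probes at 0.05. Where only one littermate was detected, and the other on none of its arrays, the fold is a bound: the brighter signal over the higher of the dim signal and the lowest signal among detected probes. The swaps balance dye bias in these means. The brightest probe of a gene stands for it.

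The retinoid genes and all lists were chosen with earlier results of these data known. From the pathway list the text names genes with an unadjusted p under 0.05, the receptors, Hox genes and the 5 further kept genes with the largest mean absolute ratio, and some of these are not reported here. Cyp26a1 and the HoxB probes were added after their values were seen. Probe positions are mm8 per the file headers, and promoters are RefSeq GRCm38.p6. The procedure was tested on simulated data. Precision is limited by how few litters and arrays there are. There were 12 alternative settings.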

Additional observations from a re-analysis of the deposited data

How the results depend on the processing

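Dhrs3 kept its sign in all 12 alternatives, and of those with a test it failed 2-fold with an unadjusted p under 0.05 only without the pairing of littermates. Aldh1a1 and Crabp1 kept their signs in every alternative that tested them. The mean of both probes was 0.17 for Rarb and 0.24 for Aldh1a3, and processed signals gave Aldh1a3 1.19. When 1 litter was left out, the mean log2 ratio ran from -0.05 (without litter 116) to 0.61 for Stra6, from -0.62 (without litter 121) to 1.31 for Aldh1a3, from -0.40 (without litter 121) to 0.81 for Cyp26b1 and from 0.14 (without litter 116) to 0.61 for Rarb. The number of retinoid genes at least 2-fold different with an unadjusted p under 0.05 was 1, and 2 from the processed signals and from the deposited value table (Aldh1a1 joining Dhrs3), 3 with slide as a random block (Crabp1 also) and 0 without the replicate block. Slide as a random block, which takes 8 arrays as observations, put 717 probes and 1 retinoid gene (Dhrs3) past the adjusted threshold. The other pathway genes past 2-fold and p, 0 above, were 1 with offset 16, 2 from processed signals and from the value table (Rarres2 among them), 1 with the slide block, and 0 to 2 when 1 litter was left out (Adh7 without litter 112, Tgm2 and Bhlhe40 without litter 121). Over all kept probes the 189 became 305 with offset 16, 546 from processed signals, 545 from the value table, 112 without the replicate block, 441 with the slide block, 71 by the methods' t-test and 260 to 373 when 1 litter was left out. The causes were not tested. Without litter 121 all arrays are from slide 1. Signal over background limits Rarb, Crabp2, Aldh1a2 and Aldh1a3.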
